A study of Mus musculus with 5 samples.

Results

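The 10 genes described here are Atf4, which encodes a stress-induced transcription factor, and 9 genes that it is known to induce or that supply amino acids to the cell, namely Asns, Chac1, Trib3, Sesn2, Slc3a2, Slc7a5, Psat1, Phgdh, and Shmt2. They were taken by symbol, matched to the gene identifiers in the transcript tables, and their transcripts were summed per gene. All 10 had counts in every library and all 10 passed the filter on low counts, out of 17058 genes in the tables and 12576 genes tested.

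The libraries came from bone marrow–derived macrophages (BMDMs) of BALB/c mice aged 6 to 12 weeks, grown out with the macrophage growth factor M-CSF and then cocultured for 48 hours with 4T1 cells, a BALB/c mammary carcinoma line. In 2 libraries the cancer cells were WT 4T1 cells, and in 3 they were 4T1 ADAM17 knock-out 2.8 cells, written Adam17-/- here, made with CRISPR/Cas9 and isolated as single-cell clones. The knock-out libraries all carry the designation 2.8, so losing this membrane protease and any other trait of the 2.8 cells cannot be told apart. A porous membrane separated the cell types, and the BMDMs in all 5 cocultures were themselves WT.

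ATF4 is the effector of the integrated stress response. When amino acids run short, the ER is overloaded, or heme or viral signals are sensed, kinases phosphorylate the translation factor eIF2α, general translation falls, and upstream reading frames in the 5′ leader of the Atf4 mRNA let more ATF4 protein be made. ATF4 then turns on genes for amino acid synthesis, uptake, and tRNA charging, together with genes that restrain growth, and because control lies largely in translation, the Atf4 mRNA level alone is a poor gauge of ATF4 activity. In macrophages, serine, glutamine, leucine, and arginine supply are known to shape inflammatory activation.

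ATF4 binds a composite sequence, the C/EBP-ATF response element, whose core was searched as TGATGNAA on both strands in RefSeq promoter windows of build GRCm38.p6, each from 250 bases before to 50 bases after a gene's start. Windows were given for 9 of the 10 genes, all but Slc7a5, and the core was found in 3 of the 9, those of Chac1, Trib3, and Asns, against 4.51% of 27025 genes with a window. The 3 matches are shown because they hold the letters of the known ATF4 element, though no binding was measured here, and are written 5′ to 3′ on the gene's strand with the match in capitals. A match in capitals that begins with TT is the reverse complement of the core.
Chac1 (chr2:119351038-119351067, + strand, 193 bases upstream of the start): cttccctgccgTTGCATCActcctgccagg
Trib3 (chr2:152344028-152344057, - strand, 15 bases downstream of the start, inside the transcript): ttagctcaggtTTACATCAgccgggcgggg
Asns (chr6:7693214-7693243, - strand, 23 bases upstream of the start): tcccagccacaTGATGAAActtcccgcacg
Of these 3 genes Trib3 passed the test described below and Chac1 and Asns did not. The full palindrome of the cAMP response element, TGACGTCA, was in 0 of these 9 genes and in 2.03% of all genes with a window. The absence of these letters says nothing about binding elsewhere.

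Across the 10 genes the difference between the cocultures was small. Trib3 was higher, Sesn2 and Psat1 were lower, and 7 did not pass, with log2 fold changes (Adam17-/- over WT coculture) from -0.56 to 0.62, all short of a 2-fold change. The test was edgeR's quasi-likelihood test on the summed counts with Benjamini-Hochberg adjustment over all genes tested, called at an adjusted p of 0.05 or less. By this rule 14.9% of all genes were higher and 16.8% were lower, so that 1 of 10 higher and 2 of 10 lower is near the background. When at least a 2-fold difference was also asked for, edgeR called 4.22% of genes and 0 of the 10, and DESeq2 also called 0 of the 10. At an unadjusted p under 0.05 edgeR gave 1 higher and 3 lower, near the 20.9% higher and 22.6% lower of all genes. The median over the 10 genes was -0.19 on the log2 scale, beside 0.0092 over all genes tested. It was -0.062 without WT replicate 1, -0.31 without WT replicate 2, and -0.040 with library size only, where the median of all genes was 0.16. In both fits on FPKM it was -0.0076, where the median of all genes was 0.15 and 0.11. Relative to all genes the 10 genes were thus at -0.20 with library size only, and at -0.16 and -0.12 on FPKM. In 2 genes the Adam17-/- libraries all lay above the WT libraries and in 4 they all lay below, against 28.4% and 29.7% of all genes.

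The libraries held 14658694 to 20788373 counts, and 3 counts, the floor used here, correspond to 0.157 to 0.197 CPM (counts scaled to the library total after TMM normalization, edgeR's scaling of library totals). The labels do not say that replicates came from separate animals or cultures, so the p-values measure the spread between these samples, and an exact permutation test of 2 against 3 could not go below 0.1 for a single gene. Macrophage markers were the most abundant of the marker lists, with a summed level of 28432 to 29209 CPM in the WT and 18555 to 20594 CPM in the Adam17-/- cocultures (7 of 10 lower), and the defining genes Adgre1, at 446 to 773 CPM, and Csf1r, at 4047 to 5615 CPM, were well expressed in every library. Neutrophil and granulocyte precursor markers summed to 1691 and 1741 CPM against 2677 to 3019 CPM (10 of 12 higher). Megakaryocyte and erythroid markers summed to 38.9 and 44.4 CPM against 68.6 to 112 CPM (4 of 4 tested higher), and dendritic cell markers to 10.8 and 16.2 CPM against 20.1 to 27.4 CPM (2 of 5 tested higher). In bulk RNA fewer cells of a type and less RNA per cell cannot be told apart, and the part of these marker shifts in the results below was not tested. Markers of mammary epithelial cancer cells summed to 11.0 to 13.9 CPM, nearly all of it Cdh1. Of the 8 with counts, 6 were at or under the floor in every library, Epcam included, and Krt5 was not listed at all.

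**Figure D1:**
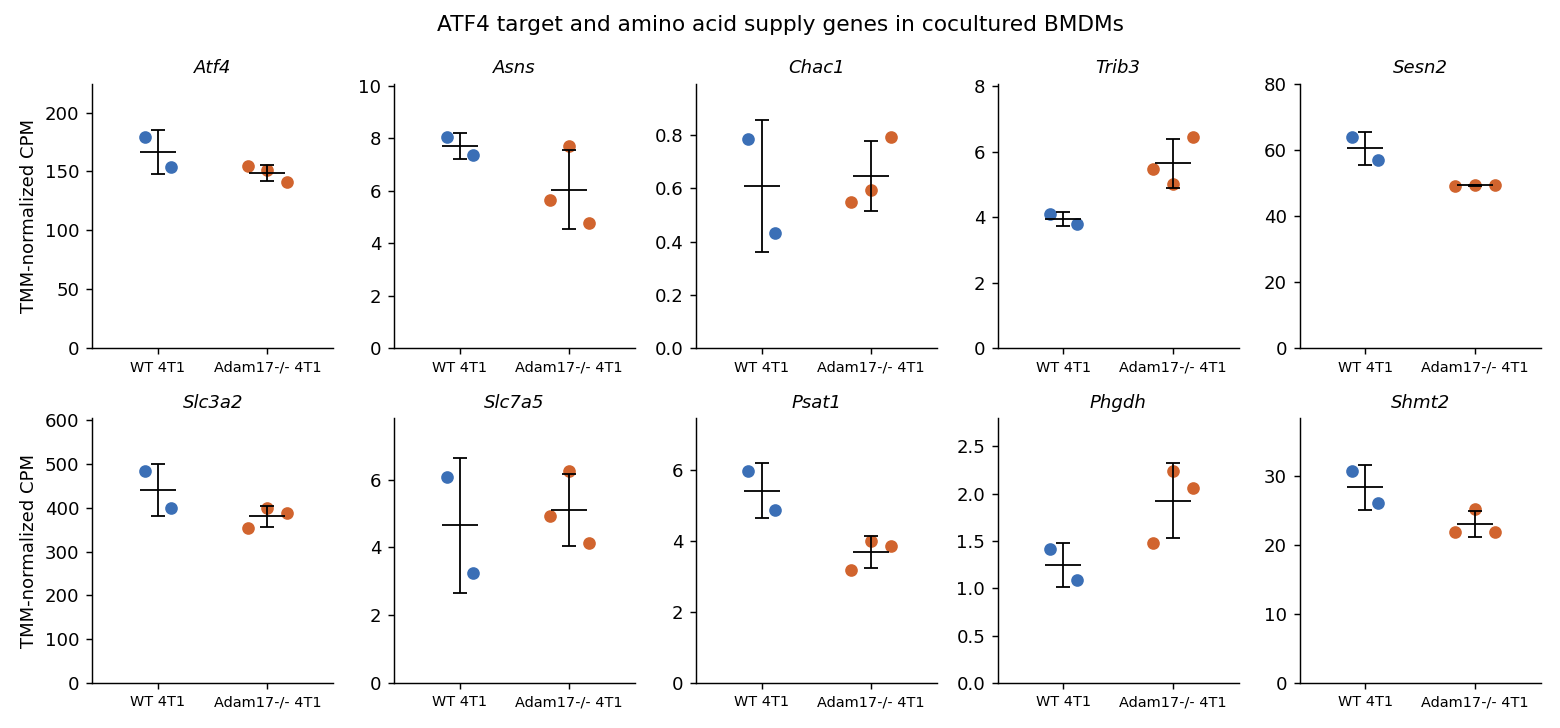
TMM-normalized CPM of the 10 genes (vertical axes, each from 0) in BMDMs cocultured with WT 4T1 cells (blue, 2 libraries) or Adam17-/- 4T1 cells (orange, 3 libraries); each point is a library, and bars are the mean ± SD. Trib3 and Phgdh lay higher in every Adam17-/- library, while Sesn2, Psat1, Shmt2, and, by a narrow margin, Slc3a2 lay lower.

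The regulator itself, Atf4 (gene ID 11911, GRCm38 chr15:80255184-80257545), was at 180 and 153 CPM in the WT cocultures and at 155, 151, and 141 CPM in the Adam17-/- cocultures. WT replicate 1 stood above the other 4 libraries, WT replicate 2 lay within the range of the Adam17-/- libraries, and the groups overlapped. The log2 fold change was -0.16 (SE 0.0926, 95% interval -0.37 to 0.046, adjusted p = 0.209). Without WT replicate 2, edgeR gave -0.27 (adjusted p = 0.0112), and without WT replicate 1 it gave -0.048 (adjusted p = 0.664). With either WT library left out, here and for the genes below, the spread comes from the Adam17-/- libraries alone and the lone WT library is assumed to vary like them, so that such a p is no support for a change. In FPKM (the authors' unit, scaled to transcript length and library depth) Atf4 was at 96.3 ± 3.61 (SD, n = 2) and 99.8 ± 5.91 (SD, n = 3), the opposite direction, with a log2 difference of 0.049 by limma. The median of all genes in the limma fits was 0.15 and 0.11, at pseudocounts of 0.1 and 1. With library size only the log2 fold change of Atf4 was -0.012, beside 0.16 for the median of all genes. The TMM factors were 0.920 and 0.963 in the WT and 1.04 to 1.05 in the Adam17-/- libraries.

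The deposited tables list a pair of Atf4 transcripts, of 1746 and 1463 bases, and their shares set WT replicate 1 apart. The 1463-base transcript made up 3.62% and 37.4% of Atf4 FPKM in the WT cocultures and 45.3%, 48.1%, and 38.7% in the Adam17-/- cocultures. The difference in length, 283 bases, equals that of an intron at chr15:80255285-80255567 in the GRCm38 annotation (GENCODE M21), which lies in the 5′ leader, before the coding start at 80256299. The leader is the part of the Atf4 mRNA that carries the upstream reading frames. Outside WT replicate 1 the share ranged from 37.4% to 48.1%, lowest in WT replicate 2. The counts behind the shorter transcript were 104 and 940 in the WT and 918 to 1153 in the Adam17-/- libraries. The split of reads between transcripts is an estimate with no replicate test here.

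**Figure D2:**
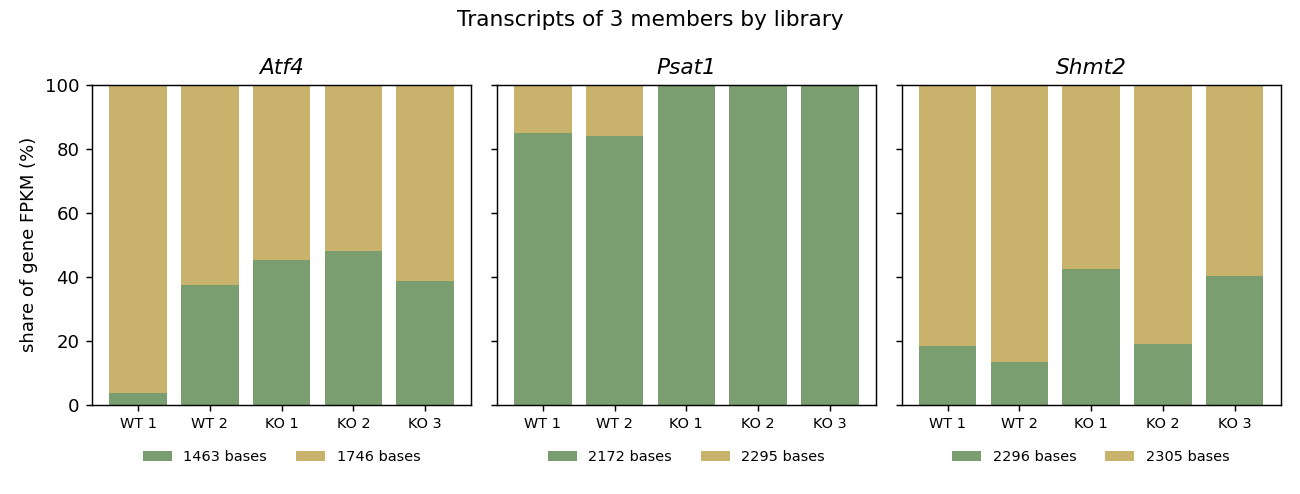
Share of each gene's FPKM (percent, vertical axis from 0 to 100) carried by its listed transcripts, named by length in bases, for Atf4, Psat1, and Shmt2 in each library (WT 1 and 2, KO 1 to 3 for Adam17-/-). The shorter Atf4 transcript is at 3.62% in WT replicate 1 and between 37.4% and 48.1% in the other 4 libraries, and the longer Psat1 transcript is listed in the WT libraries alone.

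Among the targets tied to stress signaling, Trib3 (gene ID 228775, chr2:152337425-152344060) rose. It encodes a pseudokinase that binds the kinase AKT and that feeds back on ATF4. It was at 4.08 and 3.79 CPM in the WT cocultures and 5.47, 5.0, and 6.46 CPM in the Adam17-/- cocultures. All 3 Adam17-/- libraries lay above both WT libraries. The log2 fold change was 0.52 (SE 0.177, 95% interval 0.13 to 0.92, adjusted p = 0.0482), a 1.44-fold higher level. The call was at the edge of the threshold: leaving out any 1 of the 5 libraries ended it (0.43 to 0.62, adjusted p = 0.0554 to 0.145), and DESeq2 gave 0.53 with an adjusted p of 0.130. Its relative Trib1, which directs the degradation of C/EBP factors in myeloid cells, fell, from 119 and 111 CPM to 57.7, 59.6, and 65.0 CPM (log2 fold change -0.92, adjusted p = 0.000352).

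Sesn2 (gene ID 230784, chr4:132492804-132510456) fell. Its product, a leucine sensor, binds the GATOR2 complex and holds back mTORC1, the kinase complex that promotes growth when amino acids are plentiful. It was at 64.0 and 56.9 CPM in the WT cocultures and at 49.0, 49.4, and 49.3 CPM in the Adam17-/- cocultures. The Adam17-/- libraries differed by less than 1 CPM and lay below both WT libraries. This was a log2 fold change of -0.30 (SE 0.0872, 95% interval -0.49 to -0.10, adjusted p = 0.0289). The call did not hold with scaling to library size only (-0.15, adjusted p = 0.189). Nor did it hold without WT replicate 1 (-0.21, adjusted p = 0.0571) or without any 1 Adam17-/- library (-0.28 to -0.27, adjusted p = 0.102 to 0.126). The other sestrins did not pass, Sesn1 at 0.16 (log2, adjusted p = 0.169) and Sesn3 at -0.60 (adjusted p = 0.0886).

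Chac1 (gene ID 69065, chr2:119351242-119354326), which encodes an enzyme that cleaves glutathione and is known as a sharply induced target of ATF4 and CHOP, was the least expressed of the 10. Its counts were 15 and 8 with WT 4T1 cells and 10, 9, and 15 with Adam17-/- 4T1 cells, or 0.433 to 0.794 CPM in all. The groups overlapped. At this depth the interval of the log2 fold change ran from -0.88 to 1.04 around 0.084 (adjusted p = 0.898), so that a change of up to about 2-fold either way was not detectable. The direction turned without WT replicate 2 (-0.28) and without Adam17-/- replicate 3 (-0.083). Its paralog Chac2, with a slower enzyme of the same activity, was at 1.47 to 3.06 CPM (0.48, adjusted p = 0.213).

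Asns, Psat1, Phgdh, and Shmt2 encode enzymes of amino acid synthesis. PHGDH catalyzes the first step from glycolysis to serine, PSAT1 the transamination that follows, and SHMT2 splits serine into glycine and a one-carbon unit in mitochondria. ASNS makes asparagine from aspartate and glutamine. Of these, Psat1 fell and the other 3 did not pass.

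Psat1 (gene ID 107272, chr19:15905123-15925059) was at 5.97 and 4.87 CPM in the WT cocultures and at 3.17, 4.01, and 3.87 CPM in the Adam17-/- cocultures. All 3 Adam17-/- libraries were lower. On the log2 scale the change was -0.56 (SE 0.185, 95% interval -0.97 to -0.15, adjusted p = 0.0442). The call ended with DESeq2 (-0.56, adjusted p = 0.125), without WT replicate 1 (-0.41, adjusted p = 0.195), and without any 1 Adam17-/- library (-0.60 to -0.44, adjusted p = 0.0786 to 0.158). A Psat1 transcript of 2295 bases, with 18.2 and 14.8 counts in WT replicates 1 and 2, was not among the transcripts listed for the Adam17-/- libraries. The other, of 2172 bases, was at 5.01 and 4.07 CPM against 3.17, 4.01, and 3.87 CPM, where the Adam17-/- libraries were again all lower, the nearest by less than 0.1 CPM.

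Phgdh (gene ID 236539, chr3:98313171-98339969) had a positive estimate. It was at 1.41 and 1.08 CPM in the WT cocultures and at 1.48, 2.24, and 2.07 CPM in the Adam17-/- cocultures. The Adam17-/- libraries lay above the WT libraries, the first by a narrow margin, and its counts were 20 to 39. The log2 fold change of 0.62 (SE 0.300, 95% interval -0.057 to 1.29) had the largest size of the 10 and did not pass (adjusted p = 0.144). On FPKM with limma it passed at both pseudocounts (0.68 on log2(FPKM + 0.1), adjusted p = 0.0486, and 0.35 on log2(FPKM + 1), adjusted p = 0.0462). In those fits 23.3% and 22.8% of all genes were higher, beside 14.9% with edgeR. Psph, the enzyme of the last step to serine, was at 5.95 to 6.64 CPM and did not pass (0.091, adjusted p = 0.652).

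Shmt2 (gene ID 108037, chr10:127517123-127522444) was at 30.7 and 26.1 CPM in the WT cocultures and at 21.9, 25.3, and 22.0 CPM in the Adam17-/- cocultures. The Adam17-/- libraries were all lower, with the second within 1 CPM of WT replicate 2. The log2 fold change was -0.30 (SE 0.114, 95% interval -0.56 to -0.049, adjusted p = 0.0674), short of the threshold. With WT replicate 1 as the lone WT library it was -0.42 (adjusted p = 0.00877). Its listed transcripts differ by 9 bases, and the one of 2296 bases held 18.3% and 13.4% of Shmt2 FPKM in the WT against 42.5%, 19.0%, and 40.4% in the Adam17-/- libraries. The plot of transcript shares shows Adam17-/- replicate 2 beside the WT libraries in this respect. Mthfd2, which oxidizes the one-carbon unit that SHMT2 releases, was at 8.01 and 7.68 CPM against 5.67 to 6.71 CPM (-0.34, adjusted p = 0.102).

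Asns (gene ID 27053, chr6:7675165-7693209) was at 8.06 and 7.36 CPM in the WT cocultures and at 5.64, 7.70, and 4.77 CPM in the Adam17-/- cocultures. Adam17-/- replicate 2 lay between the WT libraries and the other 2 below them, so the groups overlapped. The change was -0.37 on the log2 scale (SE 0.198, 95% interval -0.81 to 0.079, adjusted p = 0.185).

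**Figure D3:**
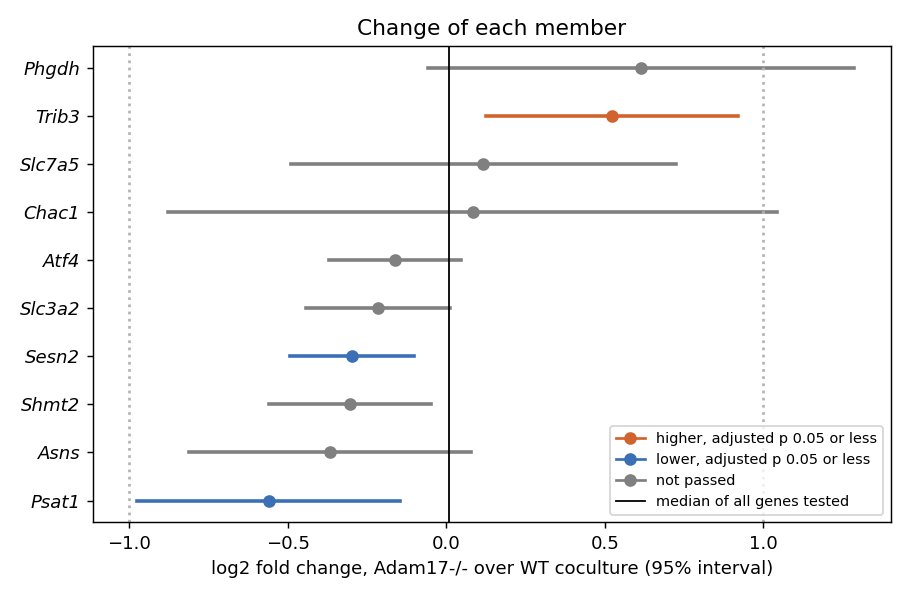
Log2 fold change of each gene (horizontal axis, Adam17-/- over WT coculture) with its 95% interval from edgeR, ordered by size; orange passed as higher, blue as lower, grey did not pass, the solid line is the median of all genes tested (0.0092), and dotted lines mark a 2-fold change. Estimates run from -0.56 (Psat1) to 0.62 (Phgdh), and the widest interval is that of Chac1.

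Slc3a2 and Slc7a5 encode the pair of chains of the LAT1 transporter. SLC3A2 (CD98hc) is a heavy chain that carries any 1 of several light chains to the cell surface, and the light chain decides what is moved: SLC7A5 takes up leucine and other large neutral amino acids, SLC7A8 (LAT2) a broader range of neutral amino acids, SLC7A7 and SLC7A6 exchange cationic for neutral amino acids, and SLC7A11 imports cystine in exchange for glutamate. Slc3a2 (gene ID 17254, chr19:8706882-8723369) was at 483 and 400 CPM in the WT cocultures and at 353, 399, and 387 CPM in the Adam17-/- cocultures. Adam17-/- replicate 2 and WT replicate 2 differed by less than 1 CPM, and WT replicate 1 stood above the rest. The log2 fold change was -0.22 (SE 0.101, 95% interval -0.44 to 0.011, adjusted p = 0.131). With WT replicate 1, the higher one, as the lone WT library it was -0.35 (adjusted p = 0.00514). In FPKM the groups overlapped, at 177 and 153 against 148, 165, and 160.

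Slc7a5 (gene ID 20539, chr8:121881146-121907686) was low, at 6.07 and 3.25 CPM in the WT cocultures and at 4.93, 6.25, and 4.13 CPM in the Adam17-/- cocultures. The WT libraries differed from each other by more than the group means did, and the groups overlapped. The difference, 0.12 on the log2 scale (SE 0.271, 95% interval -0.49 to 0.72, adjusted p = 0.766), turned its sign without WT replicate 2 (-0.26) and without Adam17-/- replicate 2 (-0.023). Per length, Slc3a2 exceeded Slc7a5 by 87.9-fold to 168-fold in FPKM, so that LAT1's own light chain was a minor one at the RNA level.

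The abundant light chain was Slc7a8, and it fell. In FPKM, Slc7a8 was at 199 and 157 in the WT cocultures and at 102, 111, and 105 in the Adam17-/- cocultures, from 103% to 112% of Slc3a2 in the WT down to 65.9% to 68.7%. Its log2 fold change in CPM was -0.90 (SE 0.116, adjusted p = 0.0009), and that of Slc7a7 was -0.85 (SE 0.0974, adjusted p = 0.000576), from 37.7 and 33.1 FPKM to 22.2, 22.4, and 20.9 FPKM. For both, the groups were clearly apart. Slc7a11 was at the edge of the threshold (-0.31 on the log2 scale, adjusted p = 0.0488), and DESeq2 (adjusted p = 0.0628), library size only (-0.17, adjusted p = 0.269), and leaving out WT replicate 2 (-0.23, adjusted p = 0.0976) or any 1 Adam17-/- library (-0.38 to -0.25, adjusted p = 0.0542 to 0.220) ended its call. Slc7a6 did not pass (0.058, adjusted p = 0.714). The ratio of Slc3a2 to the sum of these 5 light chains in FPKM was 0.714 and 0.756 in the WT and 1.09, 1.13, and 1.16 in the Adam17-/- libraries, a description with no test. Slc7a8 and Slc7a7 fell alongside the summed macrophage markers, whose part in it was not tested.

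**Figure D4:**
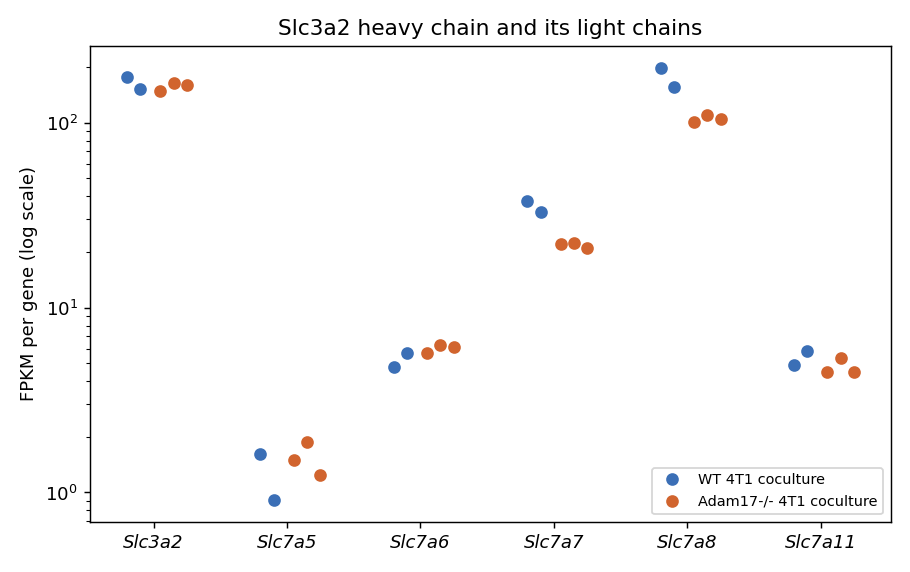
FPKM per gene (vertical log axis) of the heavy chain Slc3a2 and the listed light chains in each library, blue for WT and orange for Adam17-/- cocultures. Slc3a2 overlaps between the groups, Slc7a8 and Slc7a7 lie lower in every Adam17-/- library, and Slc7a5 is about 2 orders of magnitude below Slc3a2.

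Ordered per length in the WT cocultures, the 10 genes were Slc3a2 (165 ± 16.9 FPKM, SD, n = 2), Atf4 (96.3 ± 3.61), Sesn2 (21.7 ± 1.12), Shmt2 (11.9 ± 0.990), Asns (3.89 ± 0.127), Psat1 (2.40 ± 0.262), Trib3 (1.87 ± 0.0354), Slc7a5 (1.27 ± 0.502), Phgdh (0.650 ± 0.0990), and Chac1 (0.375 ± 0.148). No 2 neighbors overlapped in their library values there. In the Adam17-/- cocultures Trib3 (2.96 ± 0.384, SD, n = 3) and Psat1 (1.82 ± 0.212) traded places and were apart from each other. The neighbors Asns and Trib3, Psat1 and Slc7a5, and Slc7a5 and Phgdh overlapped there and did not differ beyond their spread.

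The genes around these 10 were taken from 8 lists of 171 genes in all, of which 157 were tested. Of these, 22 were higher (14.0%, beside 14.9% of all genes) and 43 lower (27.4%, beside 16.8%), and their median was -0.14 on the log2 scale. Under scaling to library size only, which moves the median of all genes from 0.0092 to 0.16, the counts were 33 higher and 27 lower and the list median was 0.012, or -0.14 relative to all genes. The counts per list below are read against the same 14.9% and 16.8%, and those from other settings against the shares of all genes there. These were 24.0% higher and 8.56% lower with library size only, and 12.6% and 14.9% with DESeq2. With 1 library left out they were 14.5% and 17.0% (WT replicate 1), 19.1% and 22.8% (WT replicate 2), 8.73% and 7.42% (Adam17-/- replicate 1), 9.96% and 9.38% (replicate 2), and 9.74% and 9.97% (replicate 3). The plot of pathway genes shows the balance within each list.

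In the list of the ATF4 and CHOP program, 8 of 29 tested genes were higher (27.6%) and 3 lower (10.3%), with a median of 0.11. With library size only 10 were higher (34.5%) and 2 lower (median 0.26, or 0.10 relative to all genes). The median was -0.00025 without WT replicate 2, and 5 were higher without Adam17-/- replicate 1. Among its transcription factors Atf3 and Cebpg were higher, Jdp2 was lower, and Ddit3, Atf5 (-0.20, adjusted p = 0.282), and Cebpb (-0.32, adjusted p = 0.0645) did not pass, the last 2 named after their values were seen. Atf3, a stress-induced repressor, was at 37.8 and 31.7 CPM against 48.1, 50.9, and 45.6 CPM (log2 fold change 0.47, adjusted p = 0.00908). Cebpg, a C/EBP partner of ATF4, was at 69.6 and 78.3 CPM against 118, 120, and 102 CPM (0.61, adjusted p = 0.00256). In each of these the Adam17-/- libraries were all higher. Nupr1, a stress-induced chromatin protein, rose by 0.43 (adjusted p = 0.0181), Gadd45a, a growth arrest gene, by 0.96 (adjusted p = 0.000532), Klhl24 by 0.72 (adjusted p = 0.00132), and Aldh1l2, a mitochondrial folate enzyme at 0.419 to 2.81 CPM, by 1.68 (adjusted p = 0.00977). Ddit3, which encodes CHOP, was at 12.5 to 18.7 CPM and did not pass (0.19, adjusted p = 0.375), nor did Ddit4, an inhibitor of mTORC1 (0.19, adjusted p = 0.277). Slc7a1, the arginine and lysine transporter CAT1, fell by 0.98 (adjusted p = 0.00215), and Jdp2, an AP-1 family repressor, fell by 0.68 (adjusted p = 0.00348).

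Upstream, of 20 genes for eIF2α kinases and regulators, 2 were higher and 3 lower, near the shares of all genes (median -0.13). With library size only 5 of 20 were higher, near the 24.0% of all genes, and 1 was lower (median 0.022, or -0.13 relative to all genes). Higher calls numbered 4 without WT replicate 2 and 1 without Adam17-/- replicate 1 or 2, and lower calls 6 without WT replicate 2, 0 without Adam17-/- replicate 1, 2 without replicate 2, and 1 without replicate 3. The kinase that senses uncharged tRNA, GCN2 (Eif2ak4), was at 32.8 and 30.5 CPM against 47.8, 49.7, and 46.1 CPM (0.60, adjusted p = 0.00165). Its inhibitor Impact rose as well (0.39, adjusted p = 0.0180). PERK (Eif2ak3), the kinase of the ER, did not pass (-0.15, adjusted p = 0.196). Lower were Eif2b3 (-0.57) and Eif2b2 (-0.41), subunits of the exchange factor that phosphorylated eIF2α blocks, and Abce1 (-0.39), a ribosome recycling factor.

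Of the 20 cytosolic aminoacyl-tRNA synthetases, which load amino acids onto tRNAs and include known ATF4 targets, 12 were lower and 0 higher by edgeR (median -0.35). That is 60.0% of the list, beside 16.8% of all genes. DESeq2 also gave 12 and 0, and at an unadjusted p under 0.05 edgeR gave 15 lower and 1 higher, beside 22.6% and 20.9% of all genes. In 18 of 20 the Adam17-/- libraries lay below both WT libraries, beside 29.7% of all genes. The lowest was Aars1, at 120 and 103 CPM against 56.4, 71.2, and 66.1 CPM (-0.79, adjusted p = 0.00136), followed by Vars1 (-0.64), Mars1 (-0.60), Wars1 (-0.58), and Kars1 (-0.58). With library size only, 7 of 20 were lower, beside 8.56% of all genes, and 2 higher, with a median of -0.20, or -0.36 relative to all genes, and 7 were lower without Adam17-/- replicate 1, 8 without replicate 2, and 8 without replicate 3, where 7.42% to 9.97% of all genes were lower.

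Of 24 tested amino acid transporters other than the pair above, 3 were higher (12.5%) and 11 lower (45.8%), with a median of -0.19. With library size only there were 5 higher and 10 lower (median -0.038, or -0.19 relative to all genes). The median was 0.012 with no filter on low counts, beside 0.065 over all genes, and -0.32 at 10 counts in every sample. Without WT replicate 1 there were 5 higher. The cationic amino acid transporters moved in different directions: Slc7a1 was at 21.4 and 15.5 CPM against 8.54, 10.5, and 9.05 CPM, while Slc7a2 was at 143 and 181 CPM against 303, 293, and 322 CPM (0.92, adjusted p = 0.00065). Slc43a2 (LAT4), another carrier of large neutral amino acids, was at 867 and 699 CPM against 465, 508, and 517 CPM (-0.66, adjusted p = 0.00208). In all 3 the groups were apart, and the directions of Slc7a1, Slc7a2, Slc7a7, and Slc7a8 were the same with library size only. Slc7a3, another cationic transporter, averaged under 1 CPM. Its log2 fold change was 2.46 by DESeq2 and 2.57 with library size only.

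**Figure D5:**
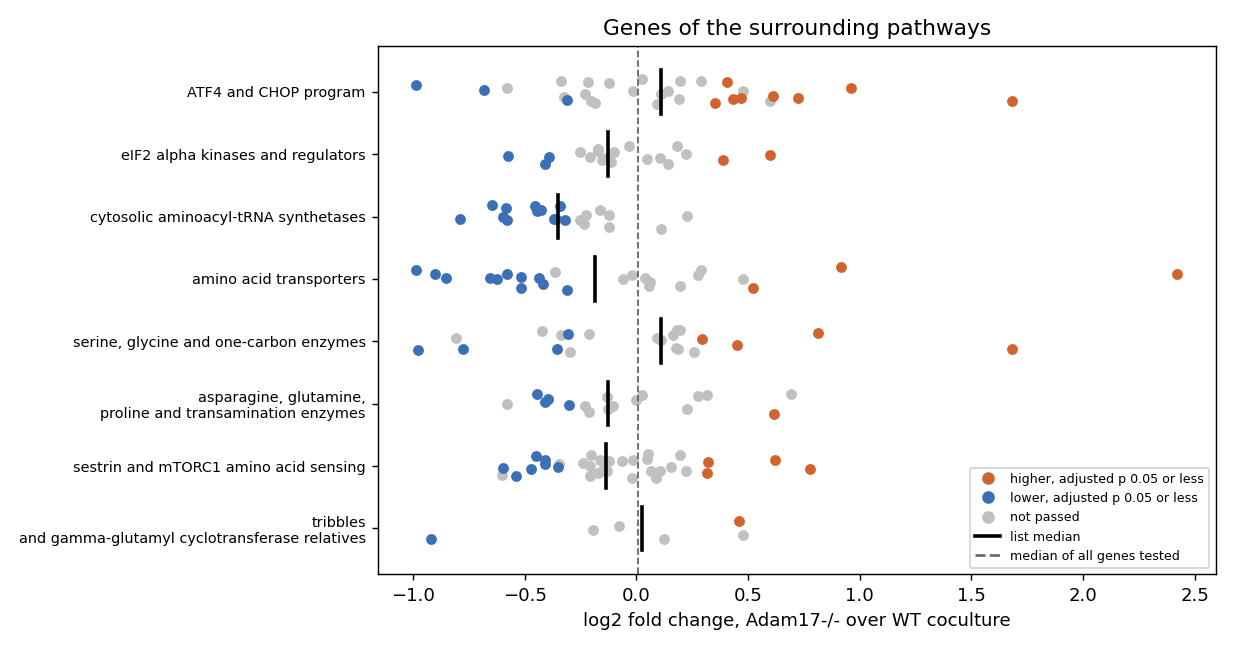
Log2 fold change (horizontal axis, Adam17-/- over WT coculture) of each tested gene in the 8 lists (rows, points spread vertically for legibility); orange passed as higher, blue as lower, grey did not pass, thick bars are list medians, and the dashed line is the median of all genes tested. Among the tRNA synthetases 12 of 20 are blue and none orange, while the ATF4 and CHOP program has 8 orange and 3 blue of 29.

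In the list of serine, glycine, and one-carbon enzymes, 4 of 21 were higher and 4 lower (19.0% each), near the shares of all genes, with a median of 0.11. The median was 0.010 without WT replicate 1 and 0.051 without WT replicate 2. With library size only it was 0.26, or 0.10 relative to all genes, and 5 were higher. Lower calls numbered 2 with library size only and without any 1 Adam17-/- library. Gcsh and Amt, subunits of the same glycine cleavage system, had opposite signs, with Gcsh at 25.2 and 26.9 CPM against 13.0, 13.7, and 12.9 CPM (-0.98, adjusted p = 0.000421) and Amt at 4.92 and 3.52 CPM against 7.50, 7.43, and 7.36 CPM (0.81, adjusted p = 0.00823). Mthfd1, a cytosolic folate enzyme, fell by 0.78 (adjusted p = 0.00377), and Tyms, which makes thymidylate, rose by 0.45 (adjusted p = 0.00868), beside proliferation markers of which 7 of 15 were higher and 2 lower. Among 18 asparagine, glutamine, proline, and transamination enzymes 1 was higher, Gpt (0.62), and 4 were lower, Got2 (-0.44), Oat (-0.41), Glul (-0.40), and Glud1 (-0.30), with a median of -0.13. The median was -0.023 without WT replicate 1, -0.078 without Adam17-/- replicate 1, and 0.020 with library size only, or -0.14 relative to all genes. The calls by edgeR, 1 higher and 4 lower, are 5.56% and 22.2% of the list, beside 14.9% and 16.8% of all genes. There were 0 higher with DESeq2 and without WT replicate 1 or Adam17-/- replicate 1 or 2, 2 higher without WT replicate 2, 3 higher and 1 lower with library size only, and 2 lower without Adam17-/- replicate 1 or 3.

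Among 34 genes of sestrin and mTORC1 amino acid sensing, 4 were higher (11.8%) and 7 lower (20.6%), near the shares of all genes (median -0.13). With library size only 5 were higher and 4 lower (median 0.013, or -0.14 relative to all genes). Without Adam17-/- replicate 1 there were 1 higher and 2 lower (5.88%, beside 7.42% of all genes), without replicate 2 or 3 there were 2 higher, and without WT replicate 2 there were 12 lower (35.3%, beside 22.8%). Rptor, the subunit that recruits mTORC1 substrates, was at 70.1 and 64.7 CPM against 43.6, 47.0, and 43.0 CPM (-0.60, adjusted p = 0.00146). Rps6kb1, which encodes the mTORC1 substrate S6K1, was at 48.3 and 60.8 CPM against 87.8, 82.8, and 81.2 CPM (0.62, adjusted p = 0.00327). The groups were apart in both. Samtor, the S-adenosylmethionine sensor, rose (0.78, adjusted p = 0.0170), and Castor2 (-0.54), of the arginine sensor family, and Kics2 (-0.47), a KICSTOR subunit, fell. Of 6 tested relatives of Trib3 and Chac1, including glutathione enzymes, Oplah, which recycles 5-oxoproline, was higher (0.46, adjusted p = 0.0332), and Trib1, given above, fell. The call for Oplah ended without WT replicate 1 (0.26, adjusted p = 0.118), without Adam17-/- replicate 1 (0.45, adjusted p = 0.112), and without Adam17-/- replicate 3 (0.43, adjusted p = 0.111).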

How the data were processed

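RNA-Seq libraries of 5 BMDM samples were grouped by their labels. The authors sequenced poly(A) RNA on a BGISEQ-500 and aligned reads to GRCm38 with HISAT. Transcripts were quantified with Bowtie2, and the submitters' processing notes also list RSEM, with versions not given in the sources used here. The authors deposited an expected count, not normalized, and an FPKM value, scaled to length and depth, per transcript. Transcripts listed at an FPKM under 0.01 were not found in the tables. How overlapping or antisense genes were counted is not given in the sources used here.

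Per gene, the expected counts of its transcripts were added up and rounded. The quasi-likelihood fit of edgeR 4.0.16 (glmQLFit, glmQLFTest), run in R 4.3.3, used TMM factors and the genes kept by filterByExpr, with no covariates and with standard errors taken from the fold change and the F statistic. The test was checked on simulated data. Alternatives were DESeq2 1.42.0, DESeq2 size factors, upper quartile factors, library size only, other filters on low counts, limma 3.58.1 on log2(FPKM + 0.1) and log2(FPKM + 1), stricter thresholds, the replicate number as a block, and each replicate left out in turn. The 10 genes and the lists were chosen with earlier results of these data known. From each list, up to 5 called genes with the largest change at a mean of 1 CPM or more were named, besides a few fixed relatives. The further light chain values were chosen to describe Slc3a2. Samtor and Kics2 were matched by older symbols. Library totals of 14658694 to 20788373 counts put 3 counts at 0.157 to 0.197 CPM. Other tools were Python 3.11.15, pandas 2.3.3, and matplotlib 3.10.9.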

Additional observations from a re-analysis of the deposited data

How the results depend on the processing

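The 2 lower genes of the 10 (Sesn2, Psat1) became 1 with DESeq2 and 0 with upper quartile factors, library size only, log2(FPKM + 0.1), log2(FPKM + 1), the replicate block, an adjusted p of 0.01, or a log2 fold change of 1, and 0 to 5 with 1 replicate left out (5 without WT replicate 2). The 1 higher gene (Trib3) became 2 with both FPKM fits, 0 with DESeq2, the replicate block, the adjusted p of 0.01, or the fold limit, and 0 to 0 with 1 replicate left out. Over all genes, 1869 higher and 2114 lower became 3019 and 1077 with library size only, 2927 and 1016 on log2(FPKM + 0.1), 2867 and 1011 on log2(FPKM + 1), 1216 and 1126 with the block, 815 and 1027 at 0.01, 422 and 109 with the fold limit, and 1089 to 2460 and 926 to 2940 with 1 replicate left out. The higher share of calls was 46.9%, or 73.7% with library size only. The pathway genes' 22 higher and 43 lower became 12 higher at 0.01, 2 and 0 with the fold limit, and 12 to 28 and 23 to 56 with 1 replicate left out. Lower ones numbered 27 with library size only, 28 and 27 on FPKM, and 25 with the block, where 6 tRNA synthetases were lower instead of 12.

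Signs turned for Atf4 on FPKM (0.049 at both pseudocounts), for Chac1 with the block (-0.095) and with 1 replicate left out (-0.28 to 0.57), and for Slc7a5 with 1 replicate left out (-0.26 to 0.64). The other 7 genes kept their sign under every alternative run. Chac1 gave no value at 10 counts in every sample. The cause of these changes was not tested. Replicate numbers are shared by 2 pairs of libraries, whose deviations from their group means correlated at -0.124 and -0.0504. The deviations of the 2 WT libraries mirror each other, so these values cannot show whether a pair shared an animal or day. The labels do not say either. The lowest counts were those of Chac1 and Phgdh, 8 to 39 per library, with standard errors of 0.429 and 0.300 on the log2 scale.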
